A study of Mus musculus with 4 samples.

Results

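Intestinal stem cells at the base of the crypt renew the gut lining, and they are recognised by the genes studied here: Lgr5, Ascl2, Smoc2, Tnfrsf19, Cdca7, Slc14a1, Slc12a2, Sox9, Igfbp4 and Rgmb. These 10 genes were taken by name as identity genes of Lgr5 stem cells, out of 24865 genes tested, and all 10 had a probe named through its RefSeq accession. They were compared between Lgr5-high cells sorted from mice without the type I interferon receptor chain Ifnar1 and from mice that have it. The knockout animals were Ifnar1-/-:Lgr5-EGFP-Ires-CreERT2 and the control animals Lgr5-EGFP-Ires-CreERT2. Animals of both groups carried the Lgr5 knock-in reporter and were given poly(I:C), an RNA duplex made to mimic viral RNA and known to provoke interferon release, at 2 mg/kg by intraperitoneal injection each day for 1 week. No untreated animals are analysed here, so each value compares knockout with control under treatment. The labels used here state neither age nor sex, nor how many animals stand behind a sample.

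Each group had 2 samples, and each sample was hybridised to its own single-colour Agilent array. Slide and scan followed the replicate number: slide 1 held replicate 1 of both groups and slide 2 held replicate 2. Of the spots that were not controls, 63.3% to 67.7% per array were well above background and 0 were saturated. Nothing in the labels says that replicates came from separate animals, so p-values reflect only how far these samples spread, and that spread may be technical. Ifnar1 itself had log2 signals of -1.76 and -2.28 in the knockout, against -0.21 and -0.37 in the control, as log2 of the ratio to each array's 75th percentile, the scale of every level below. It was 3.31-fold lower in the knockout (limma without a slide term, adjusted p = 0.479; with the slide as a block, adjusted p = 0.0433; with the block and no intensity trend, adjusted p = 0.452). With normexp background correction its difference was -1.10, against -1.73 here. Whether its probe lies in the disrupted part of the gene was not tested.

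Lgr5 stem cells live on Wnt signals. R-spondins bind LGR-family receptors and keep Wnt receptors at the cell surface, beta-catenin with its TCF/LEF partners then drives stem cell genes such as Lgr5 and Ascl2, and BMP signals from the villus side oppose this state. The reporter sits in the Lgr5 locus and the sort took cells that express it highly. The Lgr5 level may thus be set in part by the sort in both groups, which was not tested. The knock-in allele was shared by the groups, and its effect on the Lgr5 probe was not tested.

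No stem cell identity gene was called different without Ifnar1, and most differences were small. Their median difference, knockout minus control, was 0.12 on the log2 scale, and the median over all genes tested was 0.02. For 8 of the 10 the difference was at most 0.25 in either direction. The exceptions were Slc14a1, a urea transporter, at 0.98 and Tnfrsf19, a TNF receptor family member also known as Troy, at 0.67, both higher in the knockout. Neither passed the test over all genes. All 10 genes were well above background on all 4 arrays, so none of these values rests on dim spots.

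In limma without a slide term, 0 of the 10 were called at an adjusted p of 0.05, as were 0.0% of all genes, while 1 of the 10 (Tnfrsf19, higher) had an unadjusted p under 0.05, against 1.04% of all genes higher and 1.72% lower at that level. With the slide as a block, 0 of the 10 were called too, and 2 (Tnfrsf19 and Slc14a1, both higher) had an unadjusted p under 0.05, against 7.42% of all genes higher and 4.97% lower. That fit called 0.0523% of all genes higher and 0.402% lower. Both knockout arrays lay above both control arrays for 5 of the 10, namely Ascl2, Tnfrsf19, Cdca7, Slc14a1 and Sox9, against 14.5% of all genes. Both knockout arrays lay below for 0 of the 10, against 11.4% of all genes. The knockout was higher on both slides for 6 of the 10, against 34.0% of all genes, and lower on both for 1, Slc12a2, against 27.2%. With 2 samples against 2, an exact two-sided permutation test cannot go below p = 0.333 for a single gene.

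**Figure D1:**
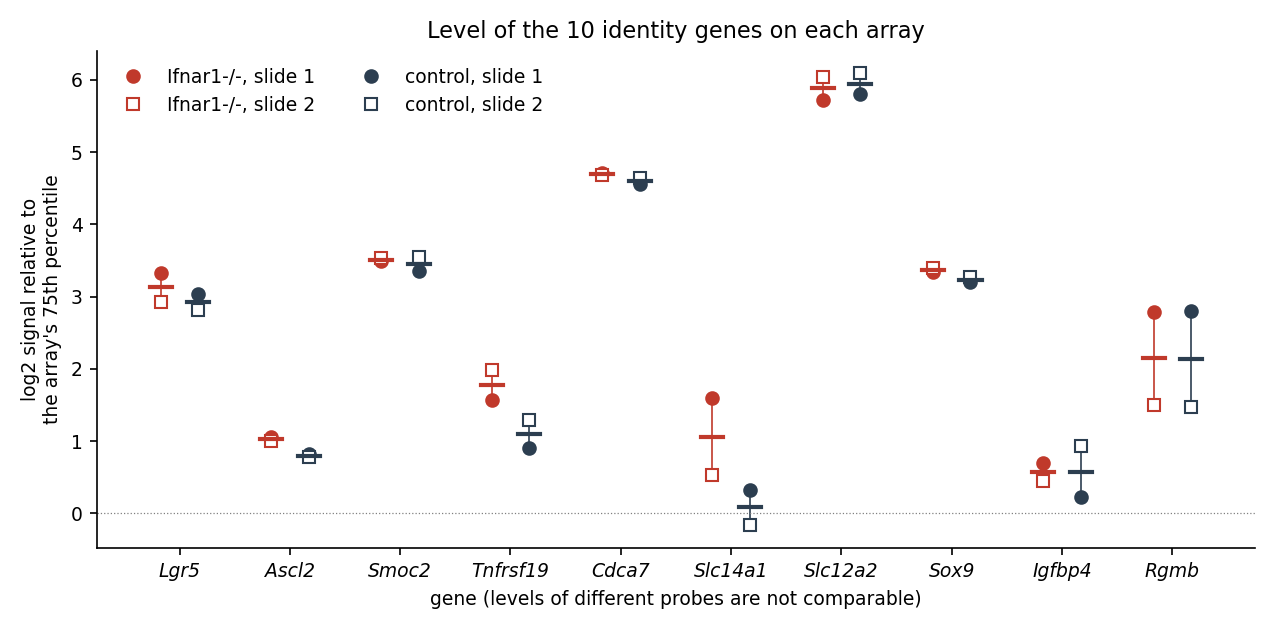
Level of each identity gene on each array, in log2 units above or below the 75th percentile of that array. Points are single arrays, circles slide 1 and squares slide 2, and thick bars are group means of 2 arrays. Both knockout arrays lie above both control arrays for Ascl2, Tnfrsf19, Cdca7, Slc14a1 and Sox9. The largest differences are those of Slc14a1 and of the brighter Tnfrsf19 probe. For Rgmb the slides stand apart within both groups. Levels of different genes come from different probes and are not comparable.

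Among the receptors, Lgr5, which binds R-spondins, had log2 signals of 3.32 and 2.93 in the knockout, against 3.04 and 2.82 in the control. The groups overlapped, since the knockout array of slide 2 lay below the control array of slide 1. The difference was 0.20, a 1.15-fold higher level, with a 95% interval from 0.784-fold to 1.68-fold (limma without a slide term, adjusted p = 1.00). With the slide as a block, the interval ran from 0.975-fold to 1.35-fold (adjusted p = 0.451). Its difference was exceeded by 22.9% of all genes tested.

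Tnfrsf19 is a Wnt target that is known to dampen Wnt signalling in these cells. It had log2 signals of 1.57 and 1.98 in the knockout, against 0.91 and 1.30 in the control. Both knockout arrays were the higher ones, and the difference was alike in both pairs, with 0.66 on slide 1 and 0.68 on slide 2. The level was 1.59-fold higher in the knockout, with a 95% interval from 1.03-fold to 2.46-fold (limma without a slide term, adjusted p = 1.00). With the slide as a block, the interval ran from 1.32-fold to 1.92-fold and the adjusted p was 0.109. The values above are those of the brighter of its 2 probes. The dimmer probe, matched to the same accession, had -2.03 and -1.33 in the knockout, against -1.94 and -1.47 in the control. That probe showed a difference of 0.03, and the mean of both probes one of 0.35, so the higher level in the knockout rests on 1 probe.

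RefSeq lists several starts for some of these genes, and promoter windows of 300 bases (250 before the start and 50 from it on, build GRCm38.p6) were found for 5 of the 10. Tnfrsf19 is shown because it had the smallest p of the identity genes and has 2 starts. The first window lies at chr14:61037938-61038237 and the second at chr14:61046806-61047105, both on the minus strand and printed 5′ to 3′. Capitals mark motif matches.
Tnfrsf19 downstream start: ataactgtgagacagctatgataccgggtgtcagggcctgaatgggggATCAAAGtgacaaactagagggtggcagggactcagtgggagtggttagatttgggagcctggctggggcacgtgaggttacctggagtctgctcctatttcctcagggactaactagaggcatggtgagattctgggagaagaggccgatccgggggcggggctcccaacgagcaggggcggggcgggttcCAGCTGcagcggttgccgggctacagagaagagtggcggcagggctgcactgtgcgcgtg
Tnfrsf19 upstream start: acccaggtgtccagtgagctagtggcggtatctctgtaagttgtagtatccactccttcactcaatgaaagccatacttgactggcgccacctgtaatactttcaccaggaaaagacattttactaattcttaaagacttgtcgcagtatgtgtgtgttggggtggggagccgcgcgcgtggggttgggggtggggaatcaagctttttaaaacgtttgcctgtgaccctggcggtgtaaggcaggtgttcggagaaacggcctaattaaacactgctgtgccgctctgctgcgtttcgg

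The motifs searched on both strands were the TCF/LEF core CTTTGAT, the palindromic E-box CAGCTG bound by factors of the ASCL family, and the core of the interferon-stimulated response element, which is GAAA, 2 free bases and GAAA. The downstream Tnfrsf19 window held 1 TCF/LEF core, read as ATCAAAG on this strand and beginning 202 bases before the start, and 1 E-box beginning 10 bases before it. The upstream window held 0 matches of the 3 motifs. Of 32851 mouse windows of this length, 3.73% held the TCF/LEF core, 16.3% the E-box and 3.44% the response element core. The other windows, those of Ascl2, Cdca7, Igfbp4 and Rgmb, held 0 matches, which says only that these letters are not in these windows. Which start the array's probes report was not tested.

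**Figure D2:**
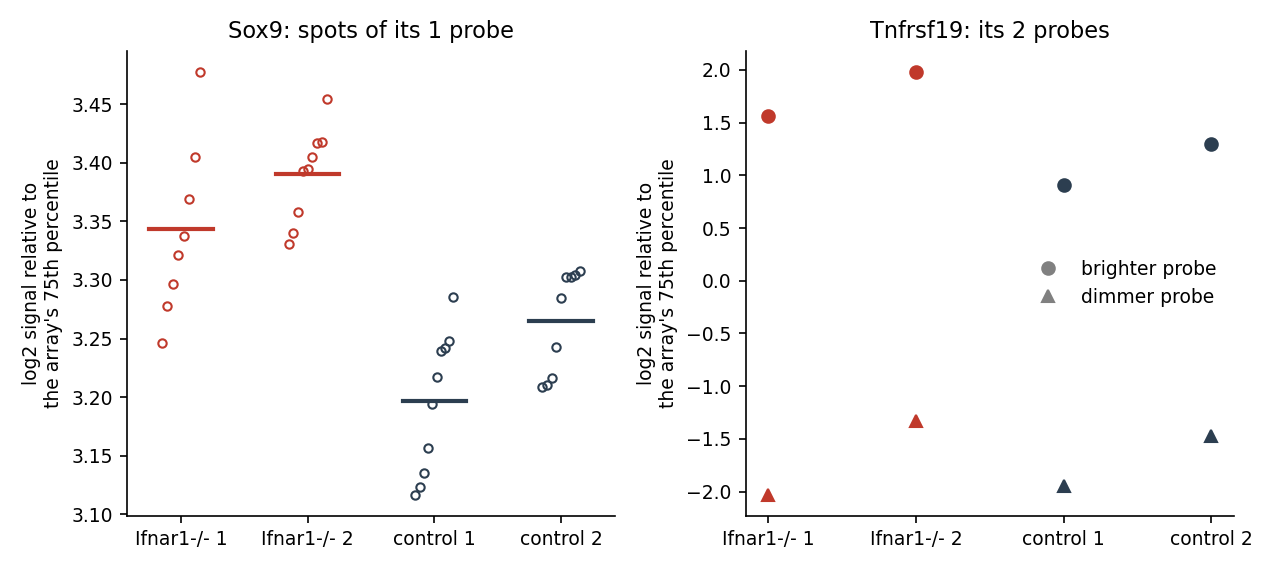
Left, the spots of the 1 Sox9 probe on each array that were not marked as outliers, with the probe mean as a bar; the axis does not start at 0. Right, the 2 Tnfrsf19 probes on each array. Both axes are log2 units above or below that array's 75th percentile. The brighter Tnfrsf19 probe is higher on both knockout arrays, and the dimmer one is not set apart by group.

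The transcription factors of the list showed small differences. Ascl2, the basic helix-loop-helix factor that holds cells in the stem cell state, had 1.05 and 1.00 in the knockout, against 0.82 and 0.78 in the control. The groups did not overlap, and replicates of a group lay closer to each other than to the other group. The difference of 0.23 had a 95% interval from -0.26 to 0.71 without a slide term and from -0.06 to 0.51 with the slide as a block (limma, adjusted p = 1.00 and 0.477).

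Sox9, an HMG-box factor found in stem cells and in Paneth cells, had 3.34 and 3.39 in the knockout, against 3.20 and 3.27 in the control. Its probe is printed 10 times on the array, which shows the technical spread directly. Spots ran from 3.25 to 3.48 and from 3.33 to 3.45 on the knockout arrays, against 3.12 to 3.29 and 3.21 to 3.31 on the control arrays. Spot ranges of the first knockout array and of both control arrays overlapped, although the array means did not. The difference was 0.14 (95% interval -0.30 to 0.58; limma without a slide term, adjusted p = 1.00; with the slide as a block, adjusted p = 0.548).

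Secreted and surface regulators differed less between groups than between slides or replicates. Smoc2, a secreted calcium-binding protein of the SPARC family, had 3.49 and 3.53 in the knockout, against 3.35 and 3.54 in the control. Its difference of 0.06 had opposite signs on the slides (0.14 and -0.01), and its interval ran from -0.39 to 0.52 (limma without a slide term).

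Igfbp4, which binds insulin-like growth factors outside the cell, had 0.70 and 0.45 in the knockout, against 0.22 and 0.93 in the control. The control arrays enclosed both knockout arrays. The difference was 0.47 on slide 1 and -0.48 on slide 2, so that the group means differed by less than 0.01, with a 95% interval from -0.75 to 0.74 (limma without a slide term). Whether the slides differ in this effect could not be tested, since each slide held 1 array per group.

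Rgmb, a membrane-anchored co-receptor for BMPs that also binds neogenin, had 2.79 and 1.50 in the knockout, against 2.80 and 1.47 in the control. The groups matched within each slide, by -0.02 on slide 1 and 0.03 on slide 2, while slide 2 lay 1.31 below slide 1 on the log2 scale. The wide interval of its group difference without a slide term, from -1.44 to 1.45, came down to between -0.24 and 0.25 with the slide as a block (limma).

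Of the transporters, Slc14a1 differed most. It carries urea across membranes and had 1.60 and 0.53 in the knockout, against 0.33 and -0.16 in the control. Both knockout arrays were above both control arrays, but the knockout arrays themselves lay 1.07 apart. The level was 1.97-fold higher in the knockout, with a 95% interval from 0.986-fold to 3.95-fold (limma without a slide term, adjusted p = 1.00). With the slide as a block, the interval was 1.46-fold to 2.67-fold and the adjusted p 0.146. The difference was 1.27 on slide 1 and 0.69 on slide 2. Without the first knockout array it was 0.45, and without the second 1.51. A larger difference was seen in 1.22% of all genes tested, and for Tnfrsf19 the share was 2.94%.

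Slc12a2, the sodium-potassium-chloride cotransporter of the basolateral membrane, had 5.71 and 6.04 in the knockout, against 5.80 and 6.09 in the control. The groups overlapped, and both pairs were slightly lower in the knockout, with differences of -0.09 and -0.04. The interval of the difference, -0.07, ran from -0.62 to 0.49 (limma without a slide term).

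Cdca7, a zinc finger protein that brings the chromatin remodeller HELLS to its targets, had 4.70 and 4.68 in the knockout, against 4.55 and 4.64 in the control. The difference of 0.10 had a 95% interval from -0.35 to 0.54 without a slide term and from -0.10 to 0.29 with the slide as a block (limma, adjusted p = 1.00 and 0.646). The groups did not overlap, but the gap between them was smaller than that between the control arrays.

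**Figure D3:**
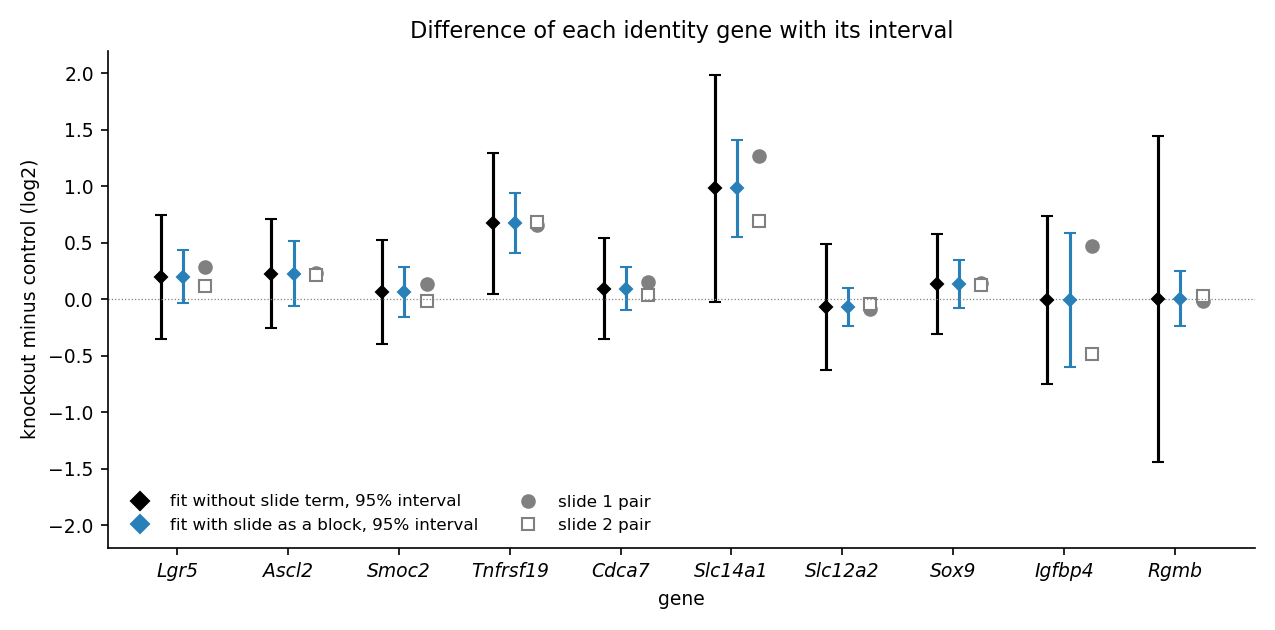
Difference of each identity gene, knockout minus control on the log2 scale, with the 95% interval of limma without a slide term (black) and with the slide as a block (blue), beside the difference on each slide (grey). Blue intervals lie above 0 for Tnfrsf19 and Slc14a1, and neither gene passed adjustment over all genes (adjusted p = 0.109 and 0.146).

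Slides set the identity genes apart as well, and for 5 of the 10 the slide difference was larger than the genotype difference, against 67.3% of all genes. The median absolute difference between slides was 0.27 for the 10 genes and 0.32 for all genes, and that between genotypes 0.12 for the 10 and 0.17 for all. In limma with a term for each, 3 of the 10 were called between slides, against 18.9% of all genes. Rgmb was 2.48-fold lower on slide 2 (adjusted p = 0.00601) and Slc14a1 1.72-fold lower (adjusted p = 0.0353), while Slc12a2 was 1.24-fold higher (adjusted p = 0.0338). With quantile scaling the Slc12a2 slide difference was 0.0142 and no longer called (adjusted p = 0.911), and Lgr5 was called instead, at -0.42 (adjusted p = 0.0386). Without the intensity trend in the variance, limma called 0 genes between slides. Slide, scan and replicate number cannot be told apart. Arrays that shared a slide deviated together, with a Pearson r of 0.563 across 24865 genes between the control and knockout deviations (genes are not independent replicates).

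**Figure D4:**
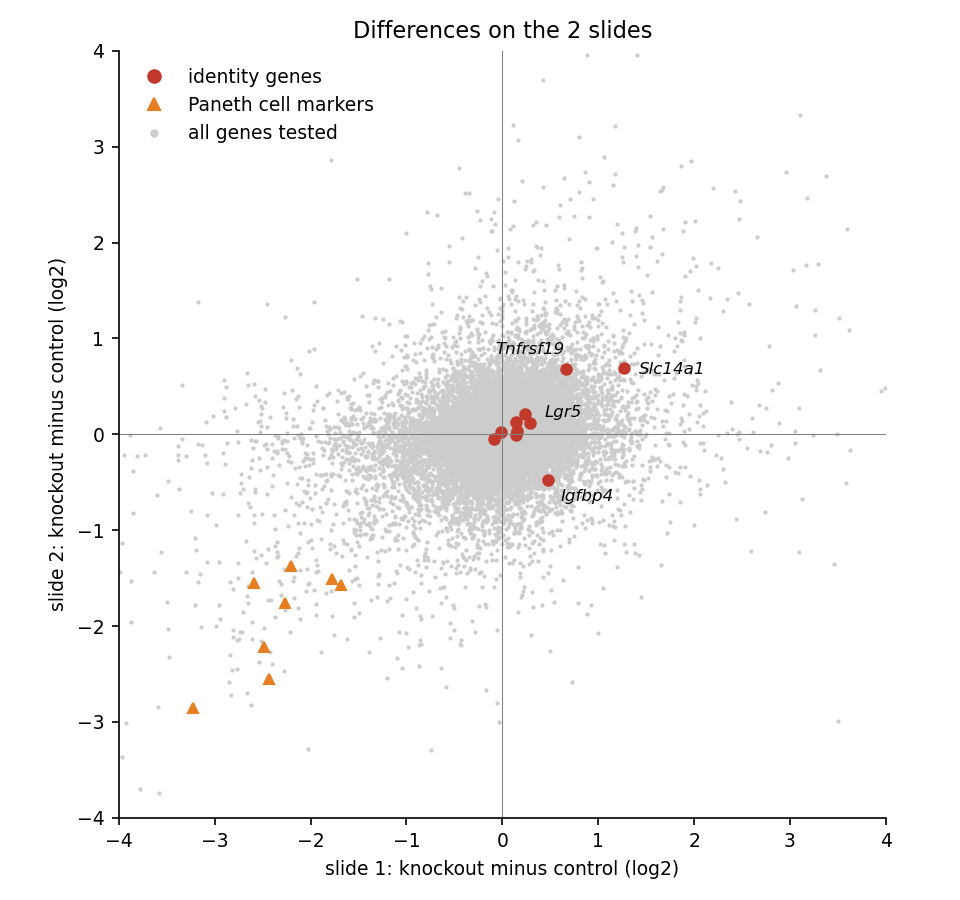
Difference between knockout and control on slide 1 (horizontal) and slide 2 (vertical), both in log2, for all genes tested (grey; 36 lie outside the plotted range), the 10 identity genes (circles) and 8 Paneth cell markers (triangles). Identity genes lie close to the origin except Slc14a1, Tnfrsf19 and Igfbp4, and the Paneth cell markers lie far below it on both slides.

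Among the lists of markers of other cell types, that of Paneth cells had the median difference furthest from 0, at -2.04. All 8 Paneth cell markers fell in limma with the slide as a block, where 0.402% of all genes were called lower. Without the block 0 of the 8 were called and all 8 had an unadjusted p under 0.05, and with the block but no intensity trend 0 genes were called at all. Their summed signal, in multiples of the array's 75th percentile, was 120 to 193 in the knockout, against 466 to 596 in the control. Fewer Paneth cells and less of this RNA per cell cannot be told apart in bulk samples. The 7 enteroendocrine markers included 6 that were lower and 1 that was higher on both slides, against 27.2% and 34.0% of all genes. Their summed signal was 4.66 to 7.56 in the knockout, against 8.27 to 12.7 in the control. Of 7 enterocyte markers, 6 were higher and 1 was lower on both slides, against the same 34.0% and 27.2% of all genes. Their summed signal was 63.6 to 66.0 in the knockout, against 42.5 to 50.2 in the control. In both of these lists 0 genes were called by limma in either fit. At an unadjusted p under 0.05, the fit without a slide term held 2 lower and 0 higher enteroendocrine markers and 3 higher and 0 lower enterocyte markers, against 1.04% of all genes higher and 1.72% lower. With the slide as a block there were 5 lower enteroendocrine and 3 higher enterocyte markers, against 4.97% and 7.42% of all genes. The part of these shifts in the values of the identity genes was not tested. Of the 5 markers fixed for Lgr5 stem cells, Olfm4 has no probe named here, and the other 4, Lgr5, Ascl2, Smoc2 and Axin2, had a summed signal of 34.4 to 36.6 in the knockout, against 32.5 to 33.6 in the control. They were well above background on every array. No unsorted or Lgr5-low cells are analysed here, so enrichment of these markers by the sort was not tested.

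Other genes of the Lgr5 stem cell signature were spread around 0. Of 24 listed, 23 were measured, with a median difference of -0.03. The knockout was higher on both slides for 8 and lower on both for 9, against 34.0% and 27.2% of all genes. None of the 23 was called by limma in either fit, with 0 at an unadjusted p under 0.05 without a slide term and 5 with the slide as a block (2 higher and 3 lower, against 7.42% and 4.97% of all genes). The 3 with the smallest p were Sp5, a Wnt-induced transcription factor, at 0.58, Soat1, which esterifies cholesterol, at 0.45, and Ephb2, a receptor that positions cells in the crypt, at -0.36.

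Receptors and regulators of the Wnt and R-spondin route were measured for 13 of 18 genes. The R-spondins Rspo1 to Rspo4 were dim in both groups and were not tested. The median difference was -0.05, with 3 genes higher and 5 lower on both slides, against 34.0% and 27.2% of all genes. In either limma fit 0 were called. Each fit held 1 lower gene at an unadjusted p under 0.05. The share of all genes was 1.72% without a slide term and 4.97% with the slide as a block. Nkd1, a feedback inhibitor of Wnt signalling, had -4.15 and -3.68 in the knockout, against -2.39 and -2.95 in the control, and was above background on 1 of the 2 knockout arrays. Lgr4, the relative of Lgr5 that also binds R-spondins, had 3.26 and 2.90 in the knockout, against 3.35 and 3.39 in the control. Both knockout values were the lower ones, with a difference of -0.29 (limma without a slide term, 95% interval -0.80 to 0.22). Znrf3, the ligase that removes Wnt receptors from the surface, differed by 0.32.

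Of 29 relatives of the identity genes by family, 17 were measured and 0 were called by limma in either fit, with a median difference of -0.01. The knockout was higher on both slides for 5 and lower on both for 7, against 34.0% and 27.2% of all genes. Among all genes, 1.72% without a slide term and 4.97% with the slide as a block were lower at an unadjusted p under 0.05. Among the relatives it was 1 gene in each fit. That gene was Slc12a8, of the same transporter family as Slc12a2. It had 0.15 and 0.26 in the knockout, against 1.30 and 1.06 in the control, with no overlap, and differed by -0.97 (95% interval -1.50 to -0.45 without a slide term; limma with the slide as a block, adjusted p = 0.0873). Eda2r, a receptor of the same family as Tnfrsf19, was not well above background on either knockout array and passed the filter only through the control. Its control mean was dim, at -3.73. The lowest spot signal read as well above background on each knockout array was taken as a floor, and the control mean lay 1.63-fold above it. That floor comes from all probes and is not the detection limit of this one. Cdca7l, Slc14a2, Sox4 and Rgma, chosen here as the closest named relatives after their values were seen, differed by -0.05, -0.01, 0.14 and 0.18.

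Partners of single identity genes were read in the same way. Around Rgmb, 14 of 16 BMP pathway genes were measured, with a median difference of -0.0029, and 0 were called by limma in either fit (0 at an unadjusted p under 0.05 without a slide term, 2 with the slide as a block, both higher, against 7.42% of all genes). The BMP targets Id1 and Id2 had the smallest p, with Id1 at 1.75 and 1.72 in the knockout, against 1.39 and 1.19 in the control, and Id2 at -1.004 and -1.47 in the knockout, against -1.74 and -2.18 in the control. Both knockout arrays were above both control arrays for either gene, with differences of 0.44 and 0.72. Smad7, an inhibitor of the pathway that its own signals induce, differed by 0.40. Of the 14, 6 were higher and 3 lower on both slides, against 34.0% and 27.2% of all genes.

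Around Igfbp4, 7 of 11 genes of insulin-like growth factor signalling were measured, with a median difference of 0.13 and 0 called or at an unadjusted p under 0.05 in either limma fit. Irs1, an adaptor below the receptor, differed by 0.79 with an interval from -0.62 to 2.21, the receptor Insr by 0.17 and the receptor Igf1r by 0.13. Of the 7, 4 were higher and 3 lower on both slides, against 34.0% and 27.2% of all genes. Around Cdca7, all 6 chromatin partners and regulators were measured, with a median difference of 0.23. Of these 6, 3 were higher on both slides and 0 lower, against 34.0% and 27.2% of all genes. None was called by limma, and 0 without and 3 with the slide as a block had an unadjusted p under 0.05 (all 3 higher, against 7.42% of all genes). The cell cycle factor E2f1 had 0.93 and 0.87 in the knockout, against 0.41 and 0.49 in the control. Hells, the remodeller itself, had 0.17 and -0.39 in the knockout, against -0.56 and -0.70 in the control. Uhrf1, which guides maintenance of DNA methylation, differed by 0.37.

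Around Slc12a2, all 10 genes of chloride secretion were measured, with a median difference of 0.10 and 0 called or at an unadjusted p under 0.05 in either limma fit. The potassium channel Kcnn4 differed by -0.20, the chloride channel Cftr by 0.16 and the channel subunit Kcne3 by 0.13. Their intervals without a slide term all included 0. Of the 10, 6 were higher and 2 lower on both slides, against 34.0% and 27.2% of all genes. Both knockout arrays lay above both control arrays for 5 and below for 1, against 14.5% and 11.4% of all genes.

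**Figure D5:**
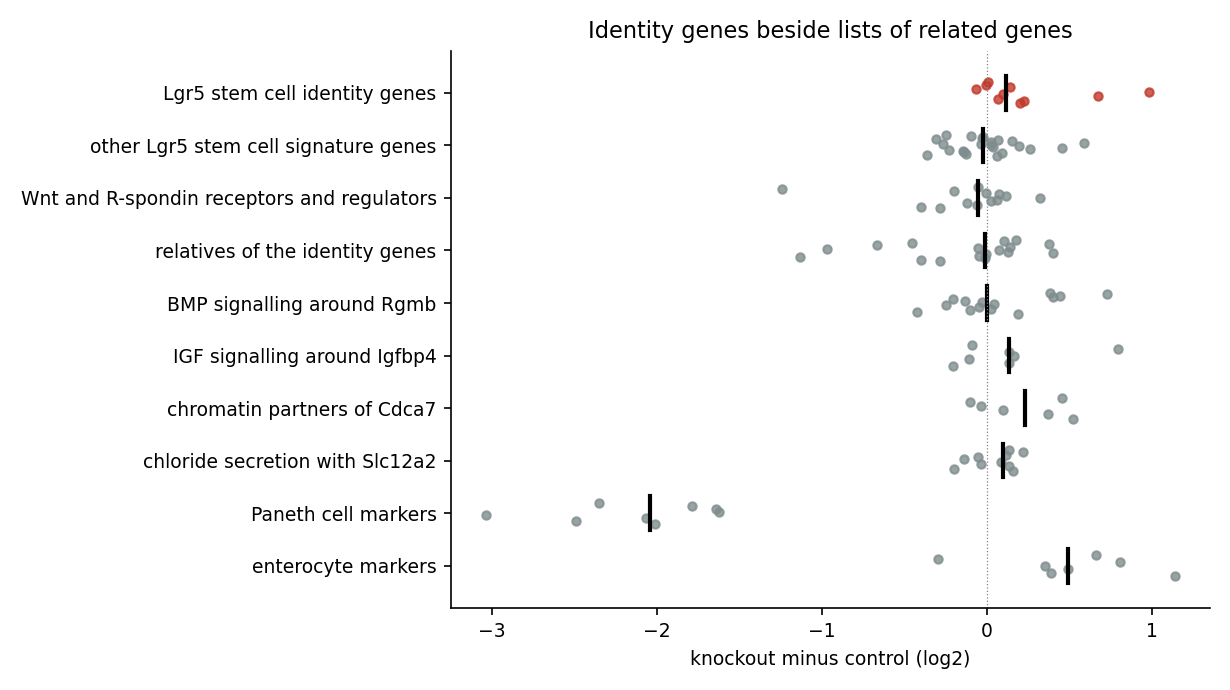
Difference of each gene, knockout minus control on the log2 scale, in the identity list (top), 7 lists of related genes and the markers of Paneth cells and enterocytes. Each point is a gene and each bar the list median. The identity genes centre on 0.12 and the Paneth cell markers on -2.04.

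The genes whose pattern over the 4 arrays was nearest to that of Lgr5 were Zfp932, Marchf5, R3hdm4, Coa5 and Sumo3, with a root mean square distance of 0.00914 to 0.0223 between log2 values centred on each gene's mean, out of 7131 named genes above the 75th percentile. Nearest to Slc14a1 were Cirbp, Rassf2, Nup210, Mcm2 and Def8, at distances of 0.136 to 0.198. The first of these, the cold-inducible RNA-binding protein gene Cirbp, had 1.78 and 1.09 in the knockout, against 0.72 and 0.16 in the control. With 4 arrays, many genes can share a pattern, and these names are a description.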

How the data were processed

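Total RNA of sorted cells was amplified and labelled with Cy3, per the labels' protocols. The deposited scanner tables hold spot intensity on a linear scale, background-subtracted by Agilent Feature Extraction 12.0.3.1 per the file headers (11.5.1.1 per the submitters' processing notes). The authors' deposited series table equals these intensities times 1 constant per array, 5.60 to 6.68, on a linear scale with no centring. Its column medians were 239 and 223 in the knockout and 249 and 231 in the control, and the target of the scaling remains unknown.

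Control and outlier spots were left out, spots of a probe were averaged, and log2 intensity was taken relative to each array's 75th percentile. A probe was kept if both arrays of either group read it well above background (35422 of 55681). RefSeq accessions named 28331 probes through the GRCm38.p6 gene table; the array design uses mm9, so gene coordinates are not given. A gene is its brightest probe. Groups were compared with limma 3.58.1 in R 4.3.3 (intensity trend, Benjamini-Hochberg at 0.05 over 24865 genes), with no slide term and with the slide as a block. The slide was read from the file headers and followed the replicate number in the sample titles. The fits have 2 and 1 residual degrees of freedom. Both were run on simulated data with independent normal errors, where adding the slide term produced false calls above its nominal rate. The arrays may differ from that setting. Group differences called only with that term are less certain. They rest on 1 residual degree of freedom, and 0 genes were called with that term and no intensity trend.

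Members and gene lists were chosen with earlier results of these data known. Named are all identity genes, up to 3 genes per list by smallest p, the 5 nearest patterns to Lgr5 and to the identity gene that differed most, and Ifnar1. Alternatives covered the block, scaling, background correction (normexp, offset 50, on the median signal), the authors' table, the filter, the probe rule, outlier spots, the variance model, the threshold and each array left out.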

Additional observations from a re-analysis of the deposited data

How the results depend on the processing

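None of the 10 identity genes was called by limma over all genes under any alternative run on all 4 arrays. Of 160 alternative values of single identity genes, 148 kept the sign of the difference reported. Many of the 160 could not turn, because the block, the variance model and the threshold leave the difference as it is. The filter settings did too, as did the probe rule for genes with 1 probe. The 12 that turned came from scaling, background correction, the authors' table or an array left out. Over all genes, the replicate block, which pairs arrays by slide, called 13 genes higher and 100 lower, against 0 and 0 without it; with the block but no intensity trend 0 were called (an alternative chosen after seeing the data), where Tnfrsf19 and Slc14a1 had adjusted p of 0.528 and 0.542. The block changed the call of Ifnar1 (difference -1.73 in both fits, and -1.10 with normexp) and of no identity gene. Leaving out 1 array gave 0 to 6 genes higher and 9 to 94 lower. The median over the identity genes lay between 0.06 and 0.12 under other settings and between 0.09 and 0.19 with 1 array left out. That of the other signature genes was -0.07 with quantile scaling (-0.0728) and in the authors' table (-0.0671), 0.00855 with the mean of all probes, and -0.0208 to 0.0367 with 1 array left out.

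Signs turned for 4 identity genes with differences near 0. With 1 array left out, Smoc2 ranged from -0.0307 to 0.16, Slc12a2 from -0.23 to 0.10, Igfbp4 from -0.36 to 0.35 and Rgmb from -0.66 to 0.67. Igfbp4 was 0.00454 with median scaling and 0.0319 with normexp, and Rgmb was -0.0237 with quantile scaling, -0.0241 with normexp and -0.0338 in the authors' table; the cause was not tested. Lgr5 lay between 0.00272 and 0.40 with 1 array left out. Between slides, settings chosen after seeing the data called 4088 to 6388 genes, of which 3 to 5 were identity genes (5 with normexp, which added Lgr5 and Tnfrsf19; with quantile scaling Lgr5 in place of Slc12a2), and without the trend 0 genes and 0 identity genes. Half-widths of the 95% intervals of the identity genes ran from 0.44 to 1.44 without a slide term and from 0.17 to 0.60 with the slide as a block. These intervals are not adjusted over all genes, so their half-widths are not the smallest difference that would be called. With the block, Tnfrsf19 and Slc14a1 differed by more than their half-widths and were not called.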

Other observations

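Markers of other cells that a sort of crypt cells could hold were at mixed levels. The 7 goblet cell markers had a summed signal of 109 to 152 in the knockout, against 140 to 143 in the control, in multiples of the array's 75th percentile. Of these 7, 2 were lower and 1 was higher on both slides, against 27.2% and 34.0% of all genes. The 4 tuft cell markers measured had a summed signal of 2.40 to 3.07 in the knockout, against 2.35 to 2.55 in the control. Of 4 T cell markers, Trac has no probe named here, and the 3 measured summed to 0.94 to 0.97 in the knockout, against 0.81 to 0.97 in the control. Of these 3, Cd3g was not well above background on either control array and passed the filter only through the knockout. Of 6 markers of stroma and vessels, Col1a1, Pecam1, Vim and Pdgfra did not pass the filter on dim probes, and the 2 others, Col1a2 and Col3a1, summed to 0.36 to 0.43 in the knockout, against 0.21 to 0.36 in the control. In these 4 lists limma called 0 genes in either fit. The 5 immune cell markers had a summed signal of 224 to 350 in the knockout, against 243 to 353 in the control. Such a sum follows its brightest probes, and levels of different probes are not comparable, so it does not measure the share of immune cells. Of the 5 markers 1, Lyz2, a lysozyme of myeloid cells, fell in limma with the slide as a block (adjusted p = 0.00675), where 0.402% of all genes were called lower. Its adjusted p in limma without the block was 0.293. Lyz2 had -0.78 and 0.10 in the knockout, against 2.04 and 2.56 in the control, a difference of -2.64. The median difference of the immune cell list was -0.01, and the 8 Paneth cell markers ranged from -3.04 to -1.63. Whether the Lyz2 signal came from myeloid cells or from Paneth cells was not tested. At an unadjusted p under 0.05, the fit without a slide term held 1 lower goblet marker, 0 tuft or T cell markers and 1 higher stromal marker, against 1.04% of all genes higher and 1.72% lower. With the slide as a block it was 1 higher and 2 lower goblet markers, 0 tuft or T cell markers and 1 higher stromal marker, against 7.42% and 4.97%.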
